A study of Mus musculus with 6 samples.

Results

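The genes described here are the 36 genes of lipogenesis and triglyceride synthesis, from the supply of NADPH through fatty acid synthesis, elongation and desaturation to the assembly of glycerolipids. They were taken by symbol from the 15176 genes of the table, and all 36 were found in it. The tissue was mouse iWAT, the white fat of the groin, which lies under the skin. RNA was sequenced from mice fed a high-fat diet, in 4 libraries of Steap4f/f mice (replicates 1, 2, 5 and 6), the controls, in which the gene is floxed but not deleted, and in 2 libraries of Steap4AKO mice (replicates 2 and 3), in which Steap4 was deleted in adipocytes. The series asked how Steap4, a metalloreductase of iron and copper, bears on the mitochondrial dysfunction that a high-fat diet brings to adipose tissue. The driver of the deletion and the age and sex of the mice are not stated in the sources used here. Nothing in the labels says that the libraries are from different mice, so that p-values cover only how these samples vary, which may be technical variation.

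White adipocytes store energy as triglyceride. Cytosolic acetyl-CoA, made from citrate or acetate, is carboxylated to malonyl-CoA and built into palmitate with NADPH as the reductant. Palmitate is then elongated and desaturated, and the acyl chains are joined in turn to glycerol 3-phosphate and to diacylglycerol. Many genes of this pathway are known targets of the transcription factors SREBP and ChREBP, which respond to insulin and to glucose.

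Values are normalized counts, that is counts that the authors divided by a factor for each library. They summed to between 16573561 and 20547925 per library. Depth, estimated from the most likely value of 1 read, was about 11598013 reads in Steap4AKO replicate 2 and 15890659 to 19396655 in the other libraries. Steap4 itself overlapped between the genotypes in this whole tissue and so did not check the labels, with 17018, 9417, 8310 and 8851 in Steap4f/f against 8313 and 8014 in Steap4AKO. Its log2 difference was -0.35 (SE 0.29, limma adjusted p = 0.544), and -0.12 without Steap4f/f replicate 1, an alternative added after the data were seen. The 10 adipocyte markers were abundant in every library, with a summed value of 747873 to 857183 in Steap4f/f against 555309 and 790862 in Steap4AKO replicates 2 and 3. Of these markers Fabp4 and Cfd were lower and Lpl higher without overlap. The 6 markers of thermogenic adipocytes (Ucp1, Cidea and others) summed to 1656 to 4987 in Steap4f/f against 247.5 and 1029 in Steap4AKO, 7.91 and 32.9% of the Steap4f/f mean, though only Cox8b among them was lower without overlap. Steap4AKO replicate 2 stood apart from the other 5 libraries. In it the 6 epithelial markers (Epcam, Krt8 and others) summed to 2208 against 30.1 to 75.1 elsewhere, with none of them at 0, and the 6 mesothelial markers to 2153 against 24.4 to 443.2. Its 8 macrophage markers summed to 29426 against 8791 to 10810. Its 5 subcutaneous depot markers summed to 430.1, of which Sfrp2 gave 285.0, against 1475 in Steap4AKO replicate 3 and 2076 to 2387 in Steap4f/f. Tbx15 was at 1.37, against 316.1 in Steap4AKO replicate 3 and 660.8 to 1330 in Steap4f/f. En1 was at 4.28 against 33.9 to 148.6 in the other libraries. Steap4AKO replicate 3 was thus also below Steap4f/f in the depot sum, and of these markers Tbx15 and Hoxc9 were lower and Sfrp2 higher without overlap. Thus 1 of the 2 Steap4AKO libraries, replicate 2, went most against its label of inguinal fat in these markers, and whether it holds other tissue was not tested. The 16 skeletal muscle markers differed between the genotypes, with sums of 159201 to 860008 in Steap4f/f against 2563 and 20645 in Steap4AKO, and 14 of the 16 were lower without overlap. The 8 markers of stromal progenitors, mostly Col1a1 and Col3a1 by value, summed to 96139 to 122782 against 65626 and 81922. Of these 4 were lower and 1, Pdgfrb, higher without overlap, where 14.4% and 14.1% of all genes tested were. The part of these markers in the results was not tested, and in bulk RNA fewer cells of a type and less RNA per cell cannot be told apart.

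**Figure D1:**
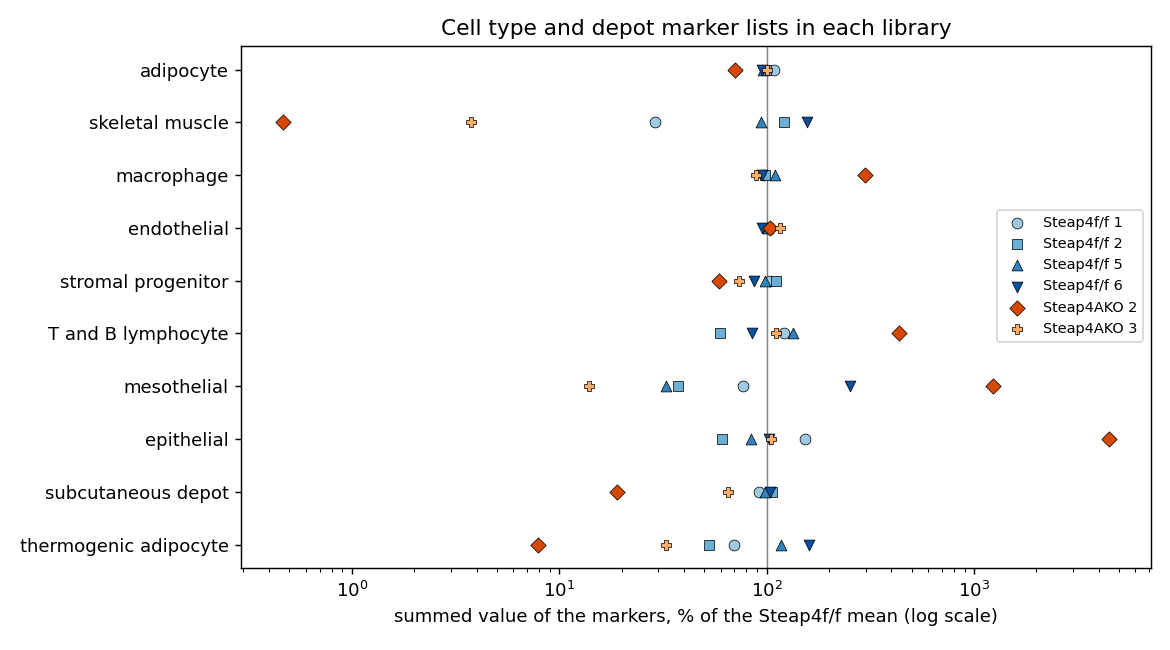
Summed value of each marker list in each library, as a percentage of the mean of the 4 Steap4f/f libraries, on a log axis; blue symbols are Steap4f/f and orange symbols Steap4AKO. Steap4AKO replicate 2 (diamond) lies at 4483% for epithelial, 1230% for mesothelial and 19.0% for subcutaneous depot markers, and both Steap4AKO libraries lie at most at 3.74% for skeletal muscle markers.

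None of the 36 genes passed an adjusted p of 0.05 over all 15006 genes tested (limma with Benjamini-Hochberg adjustment), where 0.473% of all genes passed, 0.433% lower and 0.04% higher. At an unadjusted p under 0.05 limma gave 11 of the genes lower and 3 higher in Steap4AKO (30.6% and 8.33% of the genes), against 9.66% and 8.45% of all genes tested. The same 11 genes had no overlap, with both Steap4AKO values under the lowest Steap4f/f value, and 4 genes were higher in this way. These are 30.6% and 11.1% of the genes, where 14.4% and 14.1% of all genes tested were lower or higher without overlap. The share that was lower was above the background as deposited, and the share that was higher was near it. The median log2 difference of the 36 genes was -0.17, against 0.02 over all genes tested, but without Steap4AKO replicate 2 both medians were near 0, at -0.01 and 0.01.

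The genes that were lower without overlap lay in the pentose phosphate pathway and malic enzyme step (Me1, Tkt, Taldo1), in fatty acid synthesis (Acaca, Fasn), in elongation (Elovl6), in glyceroneogenesis (Pck1) and in glycerolipid assembly (Agpat1, Agpat3, Dgat1, Pnpla3). The 4 that were higher were the desaturase relative Fads3 and the glycerolipid genes Gpam, Lpin2 and Dgat2. The other 21 genes overlapped between the genotypes.

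**Figure D2:**
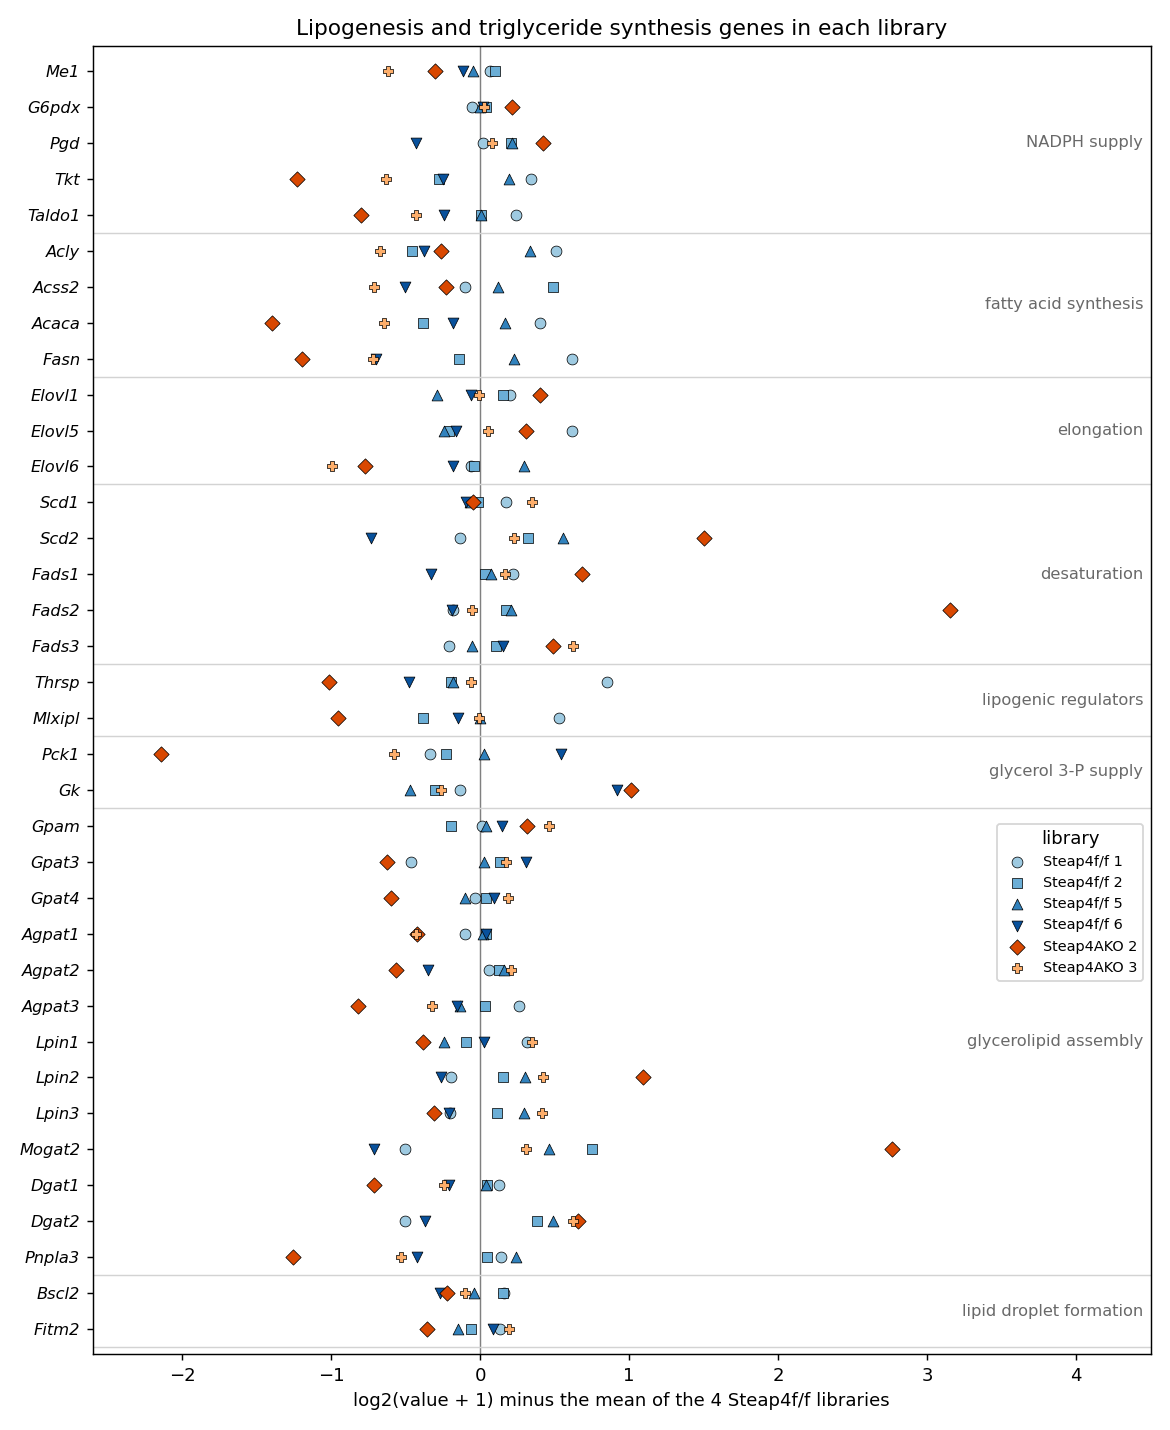
Each of the 36 genes (rows, grouped by step) in each library, as the difference of log2(value + 1) from the mean of the 4 Steap4f/f libraries; blue symbols are Steap4f/f and orange symbols Steap4AKO. Acaca, Fasn, Tkt and Elovl6 have both orange symbols left of all blue ones, while Fads2 and Mogat2 have only Steap4AKO replicate 2 (diamond) far to the right, at 3.15 and 2.77.

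The core enzymes of fatty acid synthesis, Acaca and Fasn, were lower without overlap as deposited, Acaca also under the 3 other scalings tried and Fasn under none of them. Acaca encodes acetyl-CoA carboxylase, which makes malonyl-CoA (ENSMUSG00000020532, chromosome 11, 84129672 to 84401651, plus strand of GRCm38). Its values were 14897, 8644, 12642 and 9935 in Steap4f/f against 4283 and 7192 in Steap4AKO. Both Steap4AKO libraries were below the lowest Steap4f/f library, and the mean was 2.01-fold lower, at 11529 ± 2796 (SD, n = 4) against 5738 ± 2057 (SD, n = 2), with a log2 difference of -1.02 (SE 0.28, limma adjusted p = 0.141). With Steap4AKO replicate 2 alone it was -1.40, and with replicate 3 alone -0.65.

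Fasn encodes fatty acid synthase, which builds palmitate from malonyl-CoA with NADPH (ENSMUSG00000025153, chromosome 11, 120805846 to 120824547, minus strand). It had 190790, 113022, 145490 and 76494 in Steap4f/f against 54335 and 75690 in Steap4AKO. The groups did not overlap, but Steap4AKO replicate 3 lay just under Steap4f/f replicate 6, and the Steap4f/f libraries themselves spread widely. The mean was 2.02-fold lower in Steap4AKO, with a log2 difference of -0.96 (SE 0.41, limma adjusted p = 0.276), which was -0.32 under quantile normalization. Steap4f/f replicate 1, the Steap4f/f library with the lowest skeletal muscle markers (28.9% of the Steap4f/f mean), had the highest values of Fasn and Acaca. Steap4AKO replicates 2 and 3 had lower muscle markers still (0.465 and 3.74%) and the lowest values of both genes. A link between these markers and the 2 genes was not tested.

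The enzymes that supply acetyl-CoA had lower means with overlapping groups. Acly, ATP citrate lyase, cleaves citrate to acetyl-CoA in the cytosol and had 13195, 6756, 11706 and 7135 in Steap4f/f against 7730 and 5838 in Steap4AKO. Acss2, which makes acetyl-CoA from acetate, had 3899, 5854, 4542 and 2939 against 3557 and 2543. In both genes only Steap4AKO replicate 3 lay below all Steap4f/f libraries, and the log2 differences were -0.47 each (SE 0.31 and 0.27). All 4 genes of this step were below the Steap4f/f mean in both Steap4AKO libraries.

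In NADPH supply, the oxidative enzymes of the pentose phosphate pathway, which make NADPH, overlapped between the genotypes as deposited: G6pdx, glucose 6-phosphate dehydrogenase, had 4808 to 5143 in Steap4f/f against 5793 and 5098 in Steap4AKO, and Pgd, phosphogluconate dehydrogenase, had 5079 to 7931 against 9184 and 7234. The log2 differences of G6pdx and Pgd were 0.12 (SE 0.13) and 0.25 (SE 0.22), and G6pdx was higher without overlap under quantile normalization and with equal totals. The non-oxidative enzymes Tkt and Taldo1, which recycle pentose phosphates, were lower without overlap as deposited, Taldo1 not with equal totals or adipocyte scaling. The difference between these branches was not tested. Tkt, transketolase (ENSMUSG00000021957, chromosome 14, 30548359 to 30574720), had 22917, 14917, 20667 and 15212 in Steap4f/f against 7727 and 11654 in Steap4AKO. Its mean was 1.90-fold lower (log2 difference -0.93, SE 0.25, limma adjusted p = 0.141), and both Steap4AKO values lay well below the lowest Steap4f/f value. Taldo1, transaldolase, had 9155, 7775, 7788 and 6553 against 4455 and 5768, a log2 difference of -0.61 (SE 0.18). Me1, the cytosolic malic enzyme and another source of NADPH, had 15371, 15712, 14155 and 13529 against 11883 and 9544. It was 1.37-fold lower in mean, with a narrow spread in Steap4f/f (14692 ± 1024, SD, n = 4). Me1 was not separated under any of the 3 other scalings. Its log2 difference was -0.46 as deposited, -0.26 under quantile normalization, -0.28 with equal totals and -0.12 with adipocyte scaling.

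In elongation, Elovl6 had the smallest p of the 36 genes. It encodes the elongase that extends palmitate to stearate (ENSMUSG00000041220, chromosome 3, 129532355 to 129638495). Its normalized counts were 1165, 1182, 1491 and 1071 in Steap4f/f against 713.3 and 611.5 in Steap4AKO, so that both Steap4AKO libraries lay far below the Steap4f/f range. The mean was 1.85-fold lower, 662.4 ± 72.0 (SD, n = 2) where Steap4f/f had 1227 ± 182.2 (SD, n = 4), and the log2 difference was -0.88 (SE 0.17, limma adjusted p = 0.0665). Its log2 difference was -0.77 in Steap4AKO replicate 2 and -0.99 in replicate 3. Elovl6 stayed lower without overlap under quantile normalization and with equal totals. With adipocyte scaling it did not, and its log2 difference was -0.54 (SE 0.31). The other elongases in the list overlapped between the genotypes. Elovl1, which acts on very long saturated chains, had 676.7 to 947.8 in Steap4f/f against 1090 and 823.7 in Steap4AKO, and Elovl5, which acts on polyunsaturated chains, had 1625 to 2940 against 2376 and 1991.

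Normalized counts per kilobase of the longest principal transcript allow the elongases to be compared with each other. Elovl6 made up 11.02, 15.2, 20.7 and 14.6% of the sum of the 3 elongases per kilobase in Steap4f/f, against 7.61 and 8.07% in Steap4AKO, without overlap. A share within a library does not depend on how the library is scaled. Elovl5 held the highest share in every library, from 45.8 to 59.5%.

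In desaturation, all 5 desaturase genes had a log2 difference above 0, although only Fads3 was separated as deposited and the sign of some depended on 1 library or on the fit. Scd1 was higher without overlap with equal totals and with adipocyte scaling, and Fads1 with equal totals. Scd1 encodes stearoyl-CoA desaturase 1, which makes oleate and palmitoleate, and it was the most abundant of the 36 transcripts per kilobase by far. It had 627084, 549863, 529326 and 519985 in Steap4f/f against 536057 and 706987 in Steap4AKO. The highest library was Steap4AKO replicate 3, and replicate 2 lay within the Steap4f/f range. The log2 difference was 0.15 (SE 0.56, or 0.18 in the fit with no trend) over both and -0.05 without Steap4AKO replicate 3. Per kilobase, Scd1 stood at 115183 ± 10066 (SD, n = 4) in Steap4f/f, and Pck1, the next highest, at 20488 ± 5970. Dgat2 (15931 ± 5433) and Fasn (13080 ± 4833) followed, and these last 3 did not differ beyond their spread. At the other end of the list, Mogat2, Lpin2 and Fads2 stood at 53.8 ± 25.8, 38.4 ± 7.34 and 34.1 ± 5.18 per kilobase in Steap4f/f.

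Scd2, the isoform known from brain and many other tissues, had 7502, 10295, 12136 and 4964 in Steap4f/f against 23415 and 9667 in Steap4AKO. Only Steap4AKO replicate 2 lay above the Steap4f/f range. The principal transcripts of Scd1 and Scd2 share exact stretches of up to 147 bases, and Scd2 held 0.839 to 1.99% of their sum per kilobase in Steap4f/f, so that the division of reads between them is uncertain.

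Fads3, a relative of the front-end desaturases (ENSMUSG00000024664, chromosome 19, 10041569 to 10060110), was higher without overlap. It had 8279, 10298, 9197 and 10634 in Steap4f/f against 13433 and 14723 in Steap4AKO. The mean was 1.47 times that of Steap4f/f, with a log2 difference of 0.56 (SE 0.16, limma adjusted p = 0.158), and both Steap4AKO libraries were alike. Its neighbours Fads1 and Fads2 encode the delta-5 and delta-6 desaturases of polyunsaturated fatty acid synthesis. Fads1 had 930.7 to 1366 in Steap4f/f against 1884 and 1314 in Steap4AKO. Fads2 had 93.6, 120.2, 123.1 and 93.3 in Steap4f/f, 956.1 in Steap4AKO replicate 2 and 102.7 in replicate 3. Its log2 difference of 1.55 (SE 0.74) was set by 1 library, the one with the epithelial and mesothelial markers, and was -0.05 without it. With skeletal muscle markers as a covariate the log2 differences of Scd2, Fads1 and Fads2 were -0.60, -0.49 and -1.11, and that of Fads3 was 1.01.

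The 2 lipogenic regulators in the list were lowest in Steap4AKO replicate 2. Thrsp, known as Spot 14, is a small protein that rises with lipogenesis, and Mlxipl encodes ChREBP, the glucose-responsive transcription factor. Thrsp had 20521, 9932, 10013 and 8144 in Steap4f/f against 5615 and 10855 in Steap4AKO. Mlxipl had 4410, 2341, 3054 and 2757 against 1576 and 3032. In both genes replicate 2 was the lowest of all 6 libraries and replicate 3 was within the Steap4f/f range, with log2 differences from the Steap4f/f mean of -0.06 (Thrsp) and -0.01 (Mlxipl) in replicate 3 alone.

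Promoters are shown for Fasn and Pnpla3, which were lower, and for Fads3, the higher gene with the smallest p, as examples of the CCAAT and GGGCGG letters in genes that went in opposite directions. Fasn and Pnpla3 were chosen after the motifs had been seen. They are the 250 bases before the RefSeq start on GRCm38.p6, in lower case, with capitals for CCAAT and GGGCGG on either strand. The windows are chr11:120824548-120824797 on the minus strand (Fasn), chr15:84167566-84167815 on the plus strand (Pnpla3) and chr19:10041298-10041547 on the plus strand (Fads3).
Fasn: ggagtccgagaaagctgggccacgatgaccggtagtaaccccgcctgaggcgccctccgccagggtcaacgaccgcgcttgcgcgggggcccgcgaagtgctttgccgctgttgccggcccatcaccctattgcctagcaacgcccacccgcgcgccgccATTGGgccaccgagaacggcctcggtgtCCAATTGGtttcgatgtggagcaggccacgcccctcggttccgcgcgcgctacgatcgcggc
Pnpla3: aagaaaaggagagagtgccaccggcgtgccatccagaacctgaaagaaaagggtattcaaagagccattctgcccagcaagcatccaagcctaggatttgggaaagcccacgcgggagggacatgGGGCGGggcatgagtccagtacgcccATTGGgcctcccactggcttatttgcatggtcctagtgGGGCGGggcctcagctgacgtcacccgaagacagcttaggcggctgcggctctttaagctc
Fads3: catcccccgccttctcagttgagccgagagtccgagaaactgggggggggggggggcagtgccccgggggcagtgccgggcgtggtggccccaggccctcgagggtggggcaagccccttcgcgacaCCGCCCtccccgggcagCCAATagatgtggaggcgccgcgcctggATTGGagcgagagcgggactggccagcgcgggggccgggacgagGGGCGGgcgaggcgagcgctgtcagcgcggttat

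The CCAAT letters, the core of the element that the factor NF-Y binds, were found 3 times in the Fasn window (2 of these overlap), once in that of Pnpla3 and 2 times in that of Fads3. Of the 29 genes of the list with a promoter in the RefSeq table, 15 (51.7%) held CCAAT in such a window, against 37.5% of all 27025 genes in the table. For GGGCGG these shares were 72.4% and 35.4%, for the E-box letters CACGTG 13.8% and 6.86%, and for TCACNCCAC, a form of the sterol regulatory element, 3.45% (Mlxipl alone) and 1.22%. The 27025 genes were not limited to those tested here, and a gene counted if any of its windows held the letters. The shares thus compare unlike sets. Of the 10 genes with a promoter that were lower without overlap, 5 held CCAAT, while Tkt and Pck1 did not and Acaca, Elovl6 and Agpat3 held none of the 4 motifs. The only Acaca window, chr11:84195188-84195437, lies inside the gene, which starts at 84129672, so that it does not show the promoter at that start. All 3 of the higher genes with a promoter held it. A match of letters is not a binding site.

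Glycerol 3-phosphate in adipocytes comes from glucose, from glycerol through glycerol kinase, or from pyruvate through glyceroneogenesis, whose key enzyme is cytosolic phosphoenolpyruvate carboxykinase, Pck1 (ENSMUSG00000027513, chromosome 2, 173153048 to 173159273). Pck1 had 41905, 45198, 53848 and 77119 in Steap4f/f against 12012 and 35450 in Steap4AKO. Its mean was 2.30-fold lower, the lowest ratio among the 36 genes, with a log2 difference of -1.36 (SE 0.44, limma adjusted p = 0.185). Both Steap4AKO libraries were below all Steap4f/f libraries, but not equally so, with -2.14 in replicate 2 and -0.58 in replicate 3. In limma without Steap4AKO replicate 3 it passed the threshold (adjusted p = 0.0475, the lowest of its alternatives, which ran to 0.745), and with skeletal muscle markers as a covariate its log2 difference was 0.68 (SE 0.56). Gk, glycerol kinase, was low throughout, with 236.7, 210.5, 187.4 and 493.0 against 526.8 and 216.8, and 1 library of each genotype was high.

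The first acylation of glycerol 3-phosphate is made by the GPAT enzymes. Gpam encodes the mitochondrial form and had 980.6, 845.9, 997.7 and 1072 in Steap4f/f against 1209 and 1338 in Steap4AKO, higher without overlap (log2 difference 0.39, SE 0.15, limma adjusted p = 0.228). The forms of the endoplasmic reticulum, Gpat3 and Gpat4, had log2 differences of -0.23 and -0.21, which turned to 0.11 and 0.14 when libraries were scaled to the adipocyte markers. Gpat4 had 3107 to 3551 in Steap4f/f, 2196 in Steap4AKO replicate 2 and 3794 in replicate 3, so that the Steap4AKO libraries lay on opposite sides of the Steap4f/f range. Gpat3 shares 1052 of its 3502 exon bases with an antisense gene, and the sources used here do not state whether counting used the strand. The same limit holds for G6pdx, which shares 418 of its 3080 exon bases with the antisense gene Ikbkg. The highest value of Ikbkg was 1164, and that of the antisense gene at Gpat3 was 168.3. Gpam made up 13.0, 9.31, 11.7 and 10.7% of the 3 GPAT transcripts per kilobase in Steap4f/f and 19.3 and 13.3% in Steap4AKO.

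The second acylation is made by the AGPAT enzymes, of which Agpat2 is the main adipocyte form and is known from congenital lipodystrophy. Agpat2 held 77.1 to 82.7% of the 3 AGPAT transcripts per kilobase in Steap4f/f and 81.1 and 86.0% in Steap4AKO. It had 11781, 12346, 12626 and 8859 against 7644 and 13044, with 1 Steap4AKO library below and 1 above the Steap4f/f range. Agpat1 was narrowly spread, with 1727, 1903, 1879 and 1900 in Steap4f/f against 1378 and 1374 in Steap4AKO, a 1.35-fold lower mean (log2 difference -0.43, SE 0.12, limma adjusted p = 0.148). Agpat3 had 7197, 6141, 5469 and 5404 against 3399 and 4809. Agpat1 and Agpat3 were both lower without overlap as deposited, but not when scaled to the adipocyte markers, where their log2 differences were -0.08 and -0.23.

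Lipins remove the phosphate from phosphatidate to give diacylglycerol, and Lpin1 is the main form in fat. Lpin1 held 87.0 to 93.3% of the 3 lipin transcripts per kilobase in Steap4f/f and 86.4 and 90.2% in Steap4AKO. It had 9251, 6955, 6262 and 7545 in Steap4f/f against 5681 and 9441 in Steap4AKO, below and above the Steap4f/f range. Lpin2, a minor form here, was higher without overlap, with 186.7, 238.3, 264.0 and 177.5 against 456.2 and 286.0 (log2 difference 0.75, SE 0.27, limma adjusted p = 0.215). Steap4AKO replicate 3 was close to the highest Steap4f/f library, with a log2 difference of 0.42 against 1.09 in replicate 2. Lpin3 had 297.6 to 421.8 in Steap4f/f against 276.4 and 459.2 in Steap4AKO.

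The last step, the acylation of diacylglycerol, showed opposite directions in its 2 enzymes, which are unrelated in sequence. Dgat1 (ENSMUSG00000022555, chromosome 15, 76502015 to 76511953) had 4225, 3985, 3982 and 3338 in Steap4f/f against 2356 and 3268 in Steap4AKO. Dgat2, the form tied to newly made fatty acids (ENSMUSG00000030747, chromosome 7, 99153658 to 99182719), had 24298, 44883, 48274 and 26692 against 54366 and 52950. Neither pair of groups overlapped, though Dgat1 in Steap4AKO replicate 3 lay just under Steap4f/f replicate 6, and Dgat2 varied widely within Steap4f/f. Dgat1 was not separated under any of the 3 other scalings, and Dgat2 was under each. Of these, equal totals and adipocyte scaling moved the median of all genes up, by 0.18 and 0.34, which favours a higher gene over a lower one. The log2 differences were -0.48 (SE 0.17) for Dgat1 and 0.64 (SE 0.33) for Dgat2, and neither passed (limma, adjusted p = 0.215 and 0.349). For Dgat1 the value was -0.72 in Steap4AKO replicate 2 and -0.24 in replicate 3.

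Per kilobase, the ratio of Dgat2 to Dgat1 was 4.80, 9.40, 10.1 and 6.68 in Steap4f/f against 19.3 and 13.5 in Steap4AKO. The means were 7.75 ± 2.46 (SD, n = 4) and 16.4 ± 4.06 (SD, n = 2). This ratio, chosen after its values were seen, does not depend on how libraries are scaled by a factor, and it is given with no test.

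Mogat2, which makes diacylglycerol from monoacylglycerol and is known from the intestine, was another gene of 1 library. It had 61.4, 147.6, 120.9 and 53.0 in Steap4f/f, 599.8 in Steap4AKO replicate 2 and 108.4 in replicate 3. Its log2 difference of 1.54 (SE 0.70) was 0.31 without replicate 2. Pnpla3, an acyltransferase and lipase of lipid droplets and a known target of SREBP and ChREBP (ENSMUSG00000041653, chromosome 15, 84167837 to 84187236), had 13289, 12431, 14198 and 8970 in Steap4f/f against 5036 and 8329 in Steap4AKO. It was 1.83-fold lower in mean without overlap (log2 difference -0.89, SE 0.26, limma adjusted p = 0.156), with Steap4AKO replicate 3 close to Steap4f/f replicate 6. The values were -1.26 in Steap4AKO replicate 2 and -0.53 in replicate 3. Pnpla3 stayed lower without overlap with adipocyte scaling, but not under quantile normalization or with equal totals.

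Bscl2 (seipin) and Fitm2, proteins of the endoplasmic reticulum that help droplets to form, overlapped between the genotypes. Bscl2 had 4660 to 6280 in Steap4f/f against 4816 and 5243 in Steap4AKO, and Fitm2 had 4484 to 5449 against 3895 and 5699. Their log2 differences were -0.16 (SE 0.16) and -0.08 (SE 0.18), and both were positive when libraries were scaled to the adipocyte markers.

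**Figure D3:**
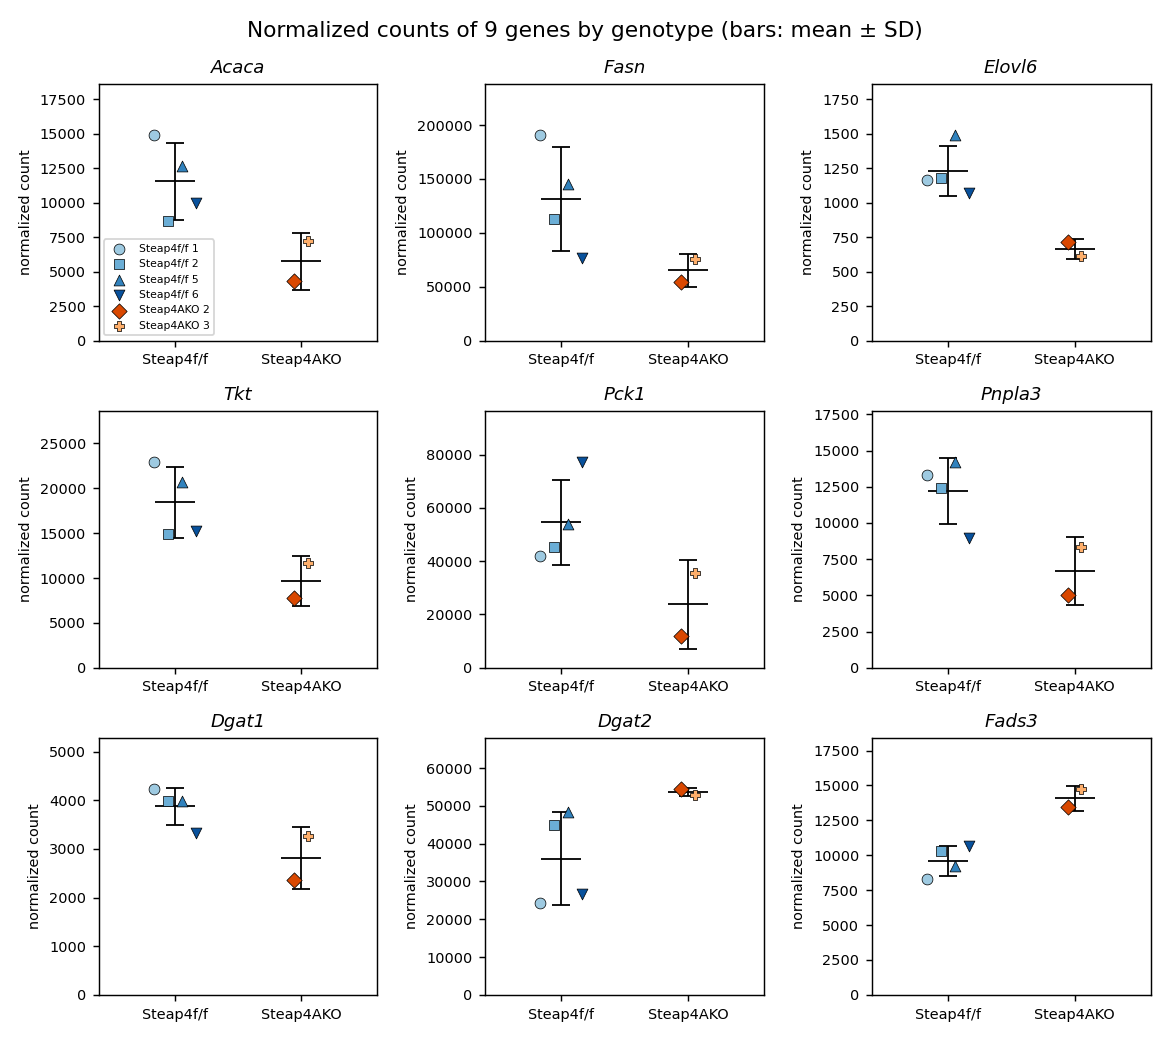
Normalized counts of 9 of the genes in each library (symbols), with the mean and SD of each genotype as bars; the vertical axes are linear and start at 0. The Steap4AKO libraries lie below all Steap4f/f libraries in Acaca, Fasn, Elovl6, Tkt, Pck1, Pnpla3 and Dgat1 and above them in Dgat2 and Fads3.

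The 2 Steap4AKO libraries did not always go the same way. Of the 13 assembly genes, 5 lay on opposite sides of the Steap4f/f mean in the 2 libraries (Gpat3, Gpat4, Agpat2, Lpin1 and Lpin3), lower in replicate 2 and higher in replicate 3. Over all 36 genes 16 were below the Steap4f/f mean in both libraries, 10 above it in both and 10 on opposite sides. The share of all genes tested on opposite sides was not computed, so that these counts cannot be called particular to the genes described. Replicate 2 was the lowest of the 6 libraries in 16 of the 36 genes (44.4%, against 24.2% of all genes tested) and the highest in 10 (27.8%, against 27.0%). Replicate 3 was the lowest in 5 (13.9%, against 13.4% of all genes tested) and the highest in 8 (22.2%, against 14.8%). Steap4f/f replicate 1 was the highest library in 11 genes (30.6%, against 21.3% of all genes tested), among them Fasn, Acaca, Acly, Tkt, Taldo1, Thrsp and Mlxipl.

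The number of separated genes depended on scaling. The summed adipocyte markers stood at 70.6% of the Steap4f/f mean in Steap4AKO replicate 2 and at 101% in replicate 3. With libraries scaled to the mean log2 value of the 10 adipocyte markers, which moved the median of all genes by 0.34, 4 genes were lower without overlap (Acaca, Tkt, Pck1 and Pnpla3) and 9 were higher, where 4.505% and 20.0% of all genes were lower and higher. These are 11.1% and 25.0% of the 36 genes. Under that scaling the log2 differences of Acaca, Fasn, Elovl6 and Tkt were -0.68, -0.61, -0.54 and -0.59. Under the 3 other scalings tried (quantile, equal totals and adipocyte markers), Acaca, Tkt and Pck1 stayed lower and Dgat2, Fads3, Gpam and Lpin2 stayed higher without overlap in each. In 30 of the 36 genes the sign was the same under all of them, and it was not in Gpat3, Gpat4, Agpat2, Lpin1, Bscl2 and Fitm2. Equal totals and adipocyte scaling moved the median of all genes up, by 0.18 and 0.34, which favours genes that were already higher. The share of all genes that stayed separated under every scaling was not computed, so that these counts cannot be called particular to the 36 genes.

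**Figure D4:**
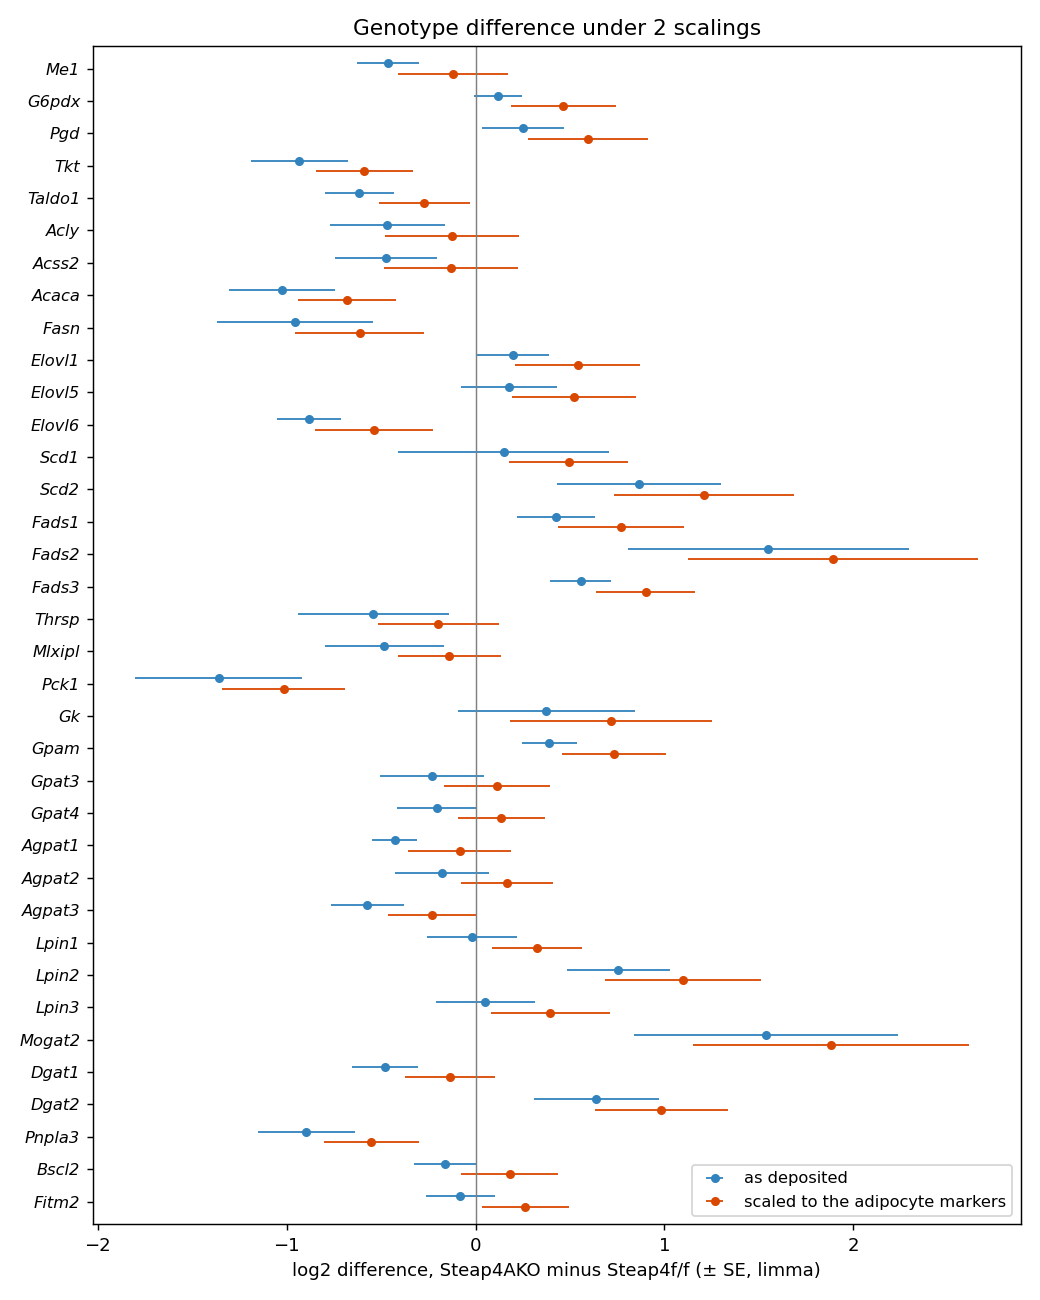
Log2 difference between Steap4AKO and Steap4f/f (limma, ± SE) for each of the 36 genes, with values as deposited (blue) and with libraries scaled to the adipocyte markers (orange). The second scaling moves every gene to the right by 0.34, and Acaca (-0.68), Fasn (-0.61), Elovl6 (-0.54) and Tkt (-0.59) remain left of 0.

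Other genes of the pathway were taken from lists of 61 genes, of which 53 were in the table and 52 were tested. One passed the threshold: Fitm1, the muscle form of the fat storage-inducing proteins, which had 142.2, 400.1, 394.8 and 711.8 in Steap4f/f against 3.61 and 16.1 in Steap4AKO (log2 difference -5.33, SE 0.71, limma adjusted p = 0.0466). It went with the skeletal muscle markers, of which 8 of 16 passed as well. Without overlap, 8 of the 52 (15.4%) were lower and 3 (5.77%) higher, where 14.4% and 14.1% of all genes were, and their median log2 difference was -0.15.

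None of the 13 transcription factors and partners passed or was separated. Srebf1, which encodes the lipogenic SREBP, had 10577, 10603, 10871 and 9025 in Steap4f/f against 6810 and 12791 in Steap4AKO, 1 library below and 1 above the Steap4f/f range. Among other genes with the smallest p, Hacd1 and Tecr, which with Hsd17b12 complete each cycle of elongation, had log2 differences of -0.98 (SE 0.25) and -0.50 (SE 0.13), and Acsl6, an acyl-CoA synthetase, -3.80 (SE 0.73). Hacd2 and Hacd3, of the same family as Hacd1, overlapped, at 0.18 (SE 0.16) and 0.21 (SE 0.19). Hacd2 had a mean of 3553 in Steap4f/f, where Hacd1 had 332.1. What part the lower skeletal muscle markers had in Hacd1 and Acsl6 was not tested. Tecr had 4057, 4354, 4061 and 4667 in Steap4f/f against 3172 and 2878 in Steap4AKO, separated like Elovl6. On the higher side, Hacd4, Lclat1, Acsl5 and Srebf2 had log2 differences of 1.26 (SE 0.37), 0.55 (SE 0.21), 0.38 (SE 0.16) and 0.42 (SE 0.19), none of which passed.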

How the data were processed

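Libraries were labelled as inguinal white adipose tissue, 4 Steap4f/f and 2 Steap4AKO. The deposited values are a signal: gene counts that the authors had normalized, which the deposited table's name ascribes to DESeq2. Per the submitters' processing notes, which give no role or order, the tools were DESeq2 1.12.4, R 4.2.0, RSEM 1.3.3 and STAR 2.7.0e, and the builds GRCm38 and mm10. Whole reads were not recovered. Of values under 30, only 33.2 (Steap4AKO replicate 2) to 57.9% fell within 0.1 of a whole read in the 6 libraries. No count test was run for this reason, no counting intervals are given, and the depths are rough.

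Symbols, positions and transcript lengths came from GENCODE M21 on GRCm38 by gene identifier (15133 matched, 43 did not). The genotypes were compared by limma (3.58.1, R 4.3.3, trend on intensity) on log2(value + 1) over the 15006 genes with a mean of at least 10, which removed 170 genes. All 36 genes described passed that filter. Adjusted p-values are Benjamini-Hochberg over all these genes, and tests are two-sided. A log2 difference is that of Steap4AKO from Steap4f/f, so that a negative one means lower in Steap4AKO, and folds are ratios of group means. The genes described, the marker and pathway lists and the tests were chosen with earlier results of these data known. Named were Steap4, the 36 genes, and of the other pathway genes those past the threshold and the 4 with the smallest p in each direction. Srebf1, Hacd2 and Hacd3 were added after their values were seen. On simulated data for this comparison (5 runs, 14411 to 14437 genes, 200 changed) the fit recovered 35.8% of genes changed 2-fold and 78.0% of those changed 4-fold, with 5.2 false calls per run. All simulated libraries had the spread of the Steap4f/f group, and low genes were not changed. In the real Steap4AKO replicate 2, 973 genes were over 2-fold above every other library, against 20 to 148 in the others. These rates may therefore not hold for the real data. Alternatives were other pseudocounts, filters, scalings and thresholds, array weights, no trend, a muscle covariate and each library left out. Promoter motifs were searched and figures drawn with Python 3.11.15.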

Additional observations from a re-analysis of the deposited data

Results flagged for a closer look

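In the 4 Steap4f/f libraries 37 genes (the 36 described and Steap4) were checked for a library far from the other 3, and 5 had one, where chance gives about 1 in 20. Steap4f/f replicate 1 was such a library in 4 of them. It was high in Thrsp, at 20521 against 8144 to 10013, in Elovl5, at 2940 against 1625 to 1716, and in Steap4 itself, at 17018 against 8310 to 9417, where the log2 difference of -0.35 between the genotypes was -0.12 without it. It was low in Agpat1, at 1727 against 1879 to 1903. Steap4f/f replicate 6 was high in Gk, at 493.0 against 187.4 to 236.7. Without Steap4f/f replicate 1 the log2 differences of all 36 genes kept their sign except those of Lpin1 and Lpin3.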

How the results depend on the processing

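No paired analysis was possible because the genotypes share only 1 replicate number, 2. Of all genes tested, 71 passed the threshold, against 1 with a pseudocount of 0.5, with a mean of at least 50 or with the muscle covariate, 112 with a pseudocount of 8, 168 with adipocyte scaling, 119 with array weights, 13 with no trend and 410 at a threshold of 0.1. With each library left out the number was 1 to 821: 238 without Steap4f/f replicate 1, 821 without Steap4AKO replicate 3 and 1 without each of the others. Of the 36 genes, Elovl6 alone passed at a threshold of 0.1, and without Steap4AKO replicate 3, where the lone sample is assumed to vary like the other group, 1 lower (Pck1) and 1 higher (Fads2) passed. With each library left out these counts ranged from 0 to 1. Genes lower without overlap numbered 7 under quantile normalization, 5 with equal totals and 4 with adipocyte scaling (19.4, 13.9 and 11.1% of the 36). Of all genes tested, 13.5, 7.70 and 4.505% were lower in this way. With each library left out, 11 to 19 of the 36 genes were lower without overlap (all 11 among them each time). Genes higher without overlap numbered 7 with equal totals and 9 with adipocyte scaling (19.4 and 25.0% of the 36), where 25.6 and 20.0% of all genes were. With each library left out, 4 to 12 of the 36 genes were higher without overlap. Without 1 Steap4f/f library, 16.7 to 18.4% of all genes were lower and 16.9 to 18.5% higher without overlap. The counts of separated genes without Steap4AKO replicate 2 (13 and 10) or 3 (19 and 12) compare 1 library with 4, where 23.9 and 24.4% or 28.6 and 31.6% of all genes are separated. The median of the 36 genes was -0.010 under quantile normalization, 0.013 with equal totals, where the median of all genes moved by 0.18, 0.17 with adipocyte scaling, -0.37 with the muscle covariate and -0.31 to -0.0076 with each library left out, the ends being those without Steap4AKO replicate 3 and 2. Between the muscle covariate and genotype the correlation was -0.90, so that errors are wide in that fit.

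Signs turned in single genes, with no turned value past the threshold, and the cause was not tested. Under quantile normalization Agpat2, Lpin1 and Fitm2 stood at 0.0087, 0.16 and 0.028, with equal totals Agpat2, Lpin1, Bscl2 and Fitm2 at 0.0061, 0.16, 0.020 and 0.10, and with array weights Lpin1 and Lpin3 at 0.052 and -0.022. With adipocyte scaling Gpat3, Gpat4, Agpat2, Lpin1, Bscl2 and Fitm2 stood at 0.11, 0.14, 0.17, 0.32, 0.18 and 0.26. With the muscle covariate Pgd, Elovl1, Elovl5, Scd2, Fads1, Fads2 and Mogat2 stood at -0.36, -0.36, -0.80, -0.60, -0.49, -1.11 and -0.49, and Pck1, Gpat3, Gpat4, Agpat2, Lpin1 and Fitm2 at 0.68, 1.17, 0.57, 0.16, 0.29 and 0.31. With each library left out the ranges that held both signs were -0.0051 to 0.40 (Elovl1), -0.050 to 0.35 (Scd1), -0.054 to 3.15 (Fads2), -0.26 to 1.01 (Gk), -0.63 to 0.17 (Gpat3), -0.60 to 0.19 (Gpat4), -0.56 to 0.21 (Agpat2), -0.39 to 0.35 (Lpin1), -0.31 to 0.42 (Lpin3) and -0.35 to 0.19 (Fitm2). Depth limits the low genes most, above all in Steap4AKO replicate 2, the shallowest library by the rough estimate, which was least certain there.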
